A study of Mus musculus with 2 samples.

Results

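Clusters of distal open chromatin in wild-type mast cells are described here. They were taken from an ATAC-seq peak list, in which each peak marks DNA that the Tn5 transposase could enter. Wild-type peaks on chromosomes 1 to 19 and X that lay more than 1 kb from both ends of every protein-coding gene were called distal, and distal peaks with gaps of at most 12500 bp were joined. A joined stretch with 4 or more peaks was kept as a cluster. This gave 105 clusters with 466 peaks, out of 10282 distal and 17170 wild-type peaks in all. The clusters were selected on the positions of wild-type peaks, so their number, size, strength and genes are given as a description. The knockout list took no part in the choice.

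The cells were bone marrow-derived mast cells, which are mast cells grown from marrow in interleukin 3. Marrow came from female mice, aged 3 weeks by the series' design text and 3 to 4 weeks by the protocol, and was cultured for 4 weeks. One library was made from wild-type littermates and 1 from knockout mice without Dnmt3a, an enzyme that sets new DNA methylation. The labels used here do not say how the gene was deleted, in which cells, or how many mice were pooled. The labels put the share of cells positive for Kit and for the alpha chain of the IgE receptor above 95%. With 1 library a genotype there was no replicate and no test between genotypes. Where an interval is given for a share, it is the exact (Clopper-Pearson) binomial 95% interval, which covers counting error only.

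Enhancers are stretches of DNA, often far from a gene's start, where transcription factors bind and raise transcription. Genes that define a cell type, above all its transcription factors, are often served by several enhancers lying close together, which are known as enhancer clusters, stretch enhancers or super-enhancers. In mast cells the factors GATA2, MITF and RUNX1 are known to bind many such elements. No histone mark, factor binding or transcript was measured in these libraries. The label enhancer cluster therefore rests on open chromatin away from gene ends alone.

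Across both libraries, 17170 wild-type and 19684 knockout peaks were analysed, with a median summit pileup of 9 overlapping fragments in each list. Single reads were sequenced, so a fragment here is the caller's unit of pileup, made from reads by settings that are not given. The lists hold no read totals, and the labels state a depth of 10 M reads for both libraries. The knockout list was the longer one, and of all wild-type peaks 77.0% had at least 1 bp in common with one of its peaks. A peak with such a partner is called shared. All coordinates are 1-based on mm10.

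No genome sequence was used here, but RefSeq's windows of 250 bases upstream of annotated gene starts were (GRCm38.p6, the build mm10 names). They hold sequence of those cluster peaks that reach upstream of a start away from a gene's outer ends. Peaks that lie only downstream of a start are not counted. Of 466 cluster peaks, 36 (7.73%, interval 5.47 to 10.5) overlapped such a window, against 7.51% (6.99 to 8.05) of the other distal wild-type peaks. The sequences below are the parts of 9 such peaks upstream of the start, on the gene's strand. Rps6ka2, the non-coding gene 5730460C07Rik, Nedd9 and Sh2d3c held the 4 strongest peaks with at least 100 bases upstream of a start, Sema4d is one of the 3 largest clusters, and Grap2, Il1rl1, Txk and Hdac7 encode immune signalling proteins or a histone deacetylase. They were chosen after their values were seen, and not evenly by motif. Of 28 sequences with at least 100 such bases that were read, only 6 held a GATA match and all 6 are shown, while 22 held none, of which 3 are shown. Capitals mark matches to 5 motifs on either strand. The GATA motif was read as AGATAA, with TGATAA counted too. The ETS motif was AGGAAG and the RUNX motif TGTGGT. The E-box was CACGTG, with CATGTG counted too, and the AP-1 site TGACTCA, with TGAGTCA counted too. No motif shares its full letters with another.
Rps6ka2 start peak, chr17:7169865-7170114, plus strand: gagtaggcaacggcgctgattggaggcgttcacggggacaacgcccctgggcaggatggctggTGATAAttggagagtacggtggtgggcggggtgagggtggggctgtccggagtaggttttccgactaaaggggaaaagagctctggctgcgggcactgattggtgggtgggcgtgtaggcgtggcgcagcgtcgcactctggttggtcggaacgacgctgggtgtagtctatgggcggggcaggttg
5730460C07Rik start peak, chr3:153792107-153792337, minus strand: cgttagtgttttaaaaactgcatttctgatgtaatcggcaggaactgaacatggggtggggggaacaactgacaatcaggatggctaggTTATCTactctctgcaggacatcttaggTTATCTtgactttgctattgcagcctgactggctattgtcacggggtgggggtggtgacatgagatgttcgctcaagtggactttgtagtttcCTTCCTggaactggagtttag
Nedd9 start peak, chr13:41359002-41359129, minus strand: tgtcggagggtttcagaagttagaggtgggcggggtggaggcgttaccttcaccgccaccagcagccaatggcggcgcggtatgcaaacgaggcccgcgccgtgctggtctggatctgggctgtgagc
Sh2d3c start peak, chr2:32727491-32727676, plus strand: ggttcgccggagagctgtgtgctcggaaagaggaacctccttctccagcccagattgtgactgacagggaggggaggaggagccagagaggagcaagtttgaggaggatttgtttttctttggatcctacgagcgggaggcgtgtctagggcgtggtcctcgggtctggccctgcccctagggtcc
Sema4d start peak, chr13:51756684-51756878, minus strand: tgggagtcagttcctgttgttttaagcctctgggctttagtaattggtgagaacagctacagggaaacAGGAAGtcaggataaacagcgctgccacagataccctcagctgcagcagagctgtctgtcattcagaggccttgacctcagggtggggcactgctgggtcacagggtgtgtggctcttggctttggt
Grap2 start peak, chr15:80623307-80623456, plus strand: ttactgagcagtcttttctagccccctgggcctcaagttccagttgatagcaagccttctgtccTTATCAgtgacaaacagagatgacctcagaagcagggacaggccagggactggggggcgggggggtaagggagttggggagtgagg
Il1rl1 start peak, chr1:40429456-40429557, plus strand: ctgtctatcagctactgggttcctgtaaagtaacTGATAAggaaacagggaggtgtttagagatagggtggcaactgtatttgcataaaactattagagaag
Txk start peak, chr5:72736603-72736712, minus strand: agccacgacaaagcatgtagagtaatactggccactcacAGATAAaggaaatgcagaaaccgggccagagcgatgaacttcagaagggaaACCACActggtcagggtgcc
Hdac7 start peak, chr15:97831524-97831641, minus strand: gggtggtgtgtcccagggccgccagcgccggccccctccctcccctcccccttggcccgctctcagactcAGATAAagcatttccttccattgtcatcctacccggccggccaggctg

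The knockout list held a peak over the first 6 of these sites and none over the starts of Il1rl1, Txk and Hdac7. Fancc held the only other unshared peak among the 28. In all, 28 of the 36 cluster peaks over a start window (77.8%, interval 60.8 to 89.9) were shared. Of the 9 sequences, Rps6ka2, Grap2, Il1rl1 and Hdac7 held 1 GATA match each, Txk 1 GATA and 1 RUNX match, 5730460C07Rik 2 GATA matches and 1 ETS match, and Sema4d 1 ETS match. Nedd9 and Sh2d3c were among the 11 of 28 with no match to any of the motifs. Among start windows at cluster peaks, 9 of 36 (25%) held a GATA match in the 250 bases upstream of the start, against 10.2% of 822 windows at other distal wild-type peaks and 16.6% of all 32619 windows. The ETS letters were in 14 of 36, against 31.8% and 29.6%, and the RUNX letters in 7 of 36, against 12.2% and 13.9%. The E-box was in 6 of 36 (16.3% and 17.7% in the other sets) and the AP-1 site in 2 of 36 (3.77% and 4.48%). No interval was computed for these motif shares, and with 36 windows at cluster peaks the differences were not tested. The windows also hold bases outside the peaks. That of Il1rl1 held 2 GATA matches, against 1 in the part inside its peak. A match describes letters, not a bound site.

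Promoters of 4 listed mast cell genes with a cluster and a wild-type promoter peak are shown next, chosen as those whose clusters held most peaks, and Inpp5d for the longest span among those with 4. Each gives 250 bases upstream of the start, on the gene's strand and with the same motifs in capitals. They show what lies at the genes whose distal clusters are described below. For each of the 4, the promoter peak was also overlapped by a knockout peak.
Prkca promoter, chr11:108343889-108344138, minus strand: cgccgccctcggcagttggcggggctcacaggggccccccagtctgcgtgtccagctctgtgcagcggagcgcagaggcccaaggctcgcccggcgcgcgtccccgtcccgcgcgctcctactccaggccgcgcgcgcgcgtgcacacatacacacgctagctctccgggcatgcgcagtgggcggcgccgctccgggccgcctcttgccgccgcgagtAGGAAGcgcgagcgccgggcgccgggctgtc
Mitf promoter, chr6:97806808-97807057, plus strand: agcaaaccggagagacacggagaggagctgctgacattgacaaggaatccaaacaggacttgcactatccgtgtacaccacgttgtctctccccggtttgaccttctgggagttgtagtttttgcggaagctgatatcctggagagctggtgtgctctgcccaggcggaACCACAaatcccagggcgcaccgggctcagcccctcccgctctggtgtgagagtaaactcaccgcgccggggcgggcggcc
Cbfa2t3 promoter, chr8:122699110-122699359, minus strand: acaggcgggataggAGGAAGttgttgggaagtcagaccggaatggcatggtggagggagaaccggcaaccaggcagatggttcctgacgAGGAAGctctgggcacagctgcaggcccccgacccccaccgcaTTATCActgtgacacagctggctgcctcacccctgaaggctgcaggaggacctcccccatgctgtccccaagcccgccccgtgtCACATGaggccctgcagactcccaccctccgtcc
Inpp5d promoter, chr1:87620062-87620311, plus strand: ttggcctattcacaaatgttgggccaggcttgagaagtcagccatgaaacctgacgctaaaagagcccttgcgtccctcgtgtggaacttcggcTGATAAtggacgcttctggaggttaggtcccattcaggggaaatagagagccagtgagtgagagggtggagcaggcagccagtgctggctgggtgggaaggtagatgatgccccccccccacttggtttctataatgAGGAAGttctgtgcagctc

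The 4 promoters differed in the motifs they held. Mitf had 1 RUNX match and no other, Prkca 1 ETS match, Inpp5d 1 GATA and 1 ETS match, and Cbfa2t3 1 GATA, 2 ETS and 1 E-box match. The promoters of Runx1, Lyl1 and Gata2, also with a peak in both lists, are not shown. Runx1 had 1 ETS and 1 E-box match, and those of Lyl1 and Gata2 held no match.

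Most clusters were at the lower limit of the rule. Of the 105, 74 held 4 peaks, 19 held 5, 9 held 6 and 3 held 7. Just below the limit, 244 stretches held 3 peaks. Spans ran from 0.755 to 42.3 kb with a median of 16.7 kb (quartiles 10.98 and 22.7). Clusters of 4 spanned a median of 15.01 kb and stretches of 3 a median of 10.7 kb. In all, the clusters covered 1.83 Mb, and 4.48% of that length lay in called peaks. Neighbouring peaks were a median of 5.09 kb apart, and the widest gap inside a cluster was 12.4 kb. The nearest distal peak outside any cluster lay 12.7 kb from its edge. Both values are bounded by the rule, which joined gaps of at most 12500 bp. Of 209 edges, 11 had their next distal peak within 15 kb.

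**Figure D1:**
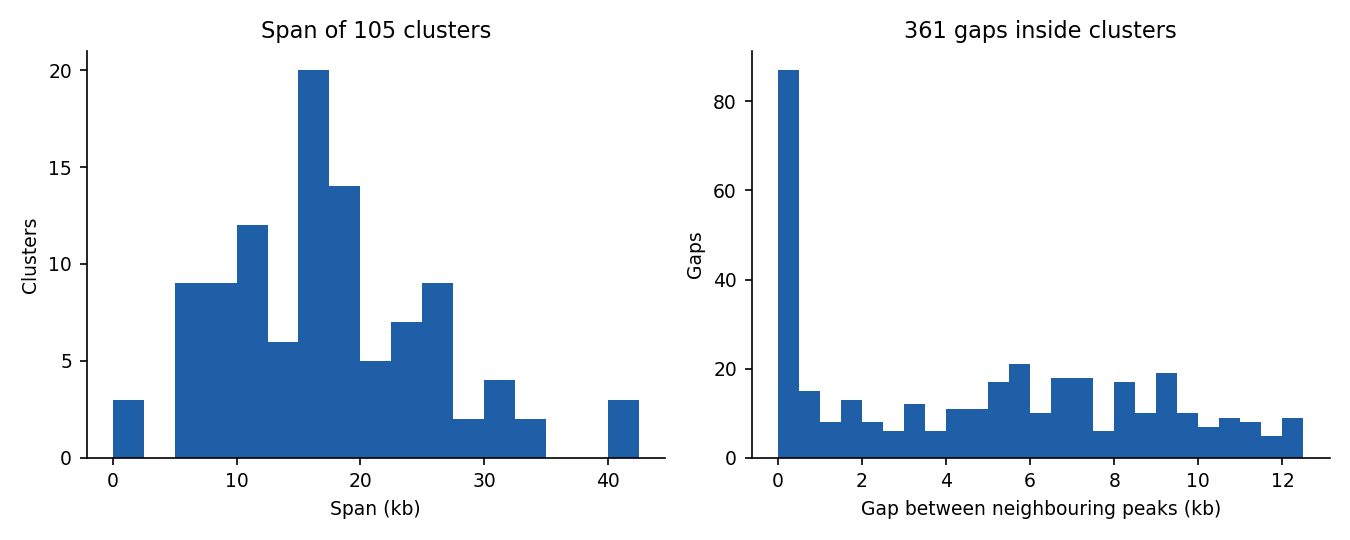
The left panel shows the span in kb of the 105 clusters and the right panel the 361 gaps in kb between neighbouring peaks inside them, as counts per bin. Most spans lie between 5 and 30 kb, and the gaps have a high first bin, with 69 gaps of at most 200 bp.

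Some neighbouring peaks lay nearly side by side. Of 361 gaps, 69 were at most 200 bp and 102 at most 1 kb. When intervals within 200 bp were counted as 1, the number of clusters fell from 105 to 65. The shortest 3 clusters were shorter than 3 kb, with 4 peaks in 0.755 kb inside Magi2, in 1.92 kb inside Rbpj and in 2.24 kb at chr12:111944730-111946973. The cluster at chr17:39843348-39848798 overlapped Rn18s-rs5, a ribosomal RNA pseudogene, and had summit pileups of 113 to 132 fragments over a median local background of 43.3. The next highest median local background of a cluster was 2.35. All 4 of its peaks were also in the knockout list. Without these 4 clusters, chosen after the data were seen, 101 clusters remained. The share of cluster peaks with a knockout partner, given below, was then 78.7%, and the share of clusters with a knockout cluster 50.5%. No other share was computed without them.

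Cluster peaks had a median −log10 q of 7.98 (quartiles 6.03 and 12.99) and the other distal peaks one of 7.79 (5.88 and 11.4). The −log10 q is the caller's measure of how far a peak stands above local background. In the strongest range, 5.79% of cluster peaks (27 of 466, interval 3.85 to 8.32) and 5.25% of other distal peaks (4.81 to 5.71) reached 20. Within a cluster, the strongest peak had a median −log10 q of 15.8 and the weakest one of 5.26. These are the extremes of 4 or more peaks each, and no other grouping of distal peaks was set beside them. In 23 clusters the strongest peak reached 20, and in 6 it was below the median of the other distal peaks. Local background was higher around cluster peaks, at a median of 0.57 against 0.23 fragments, and their summit pileup was also higher, at a median of 11 against 8. Since the rule picks peaks with near neighbours, the differences in background and pileup are given as a description. The part of the local background in the other values was not tested.

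The clusters were spread over all 19 autosomes. Chromosome 11 held 13 clusters, chromosome 8 held 10, chromosomes 9 and 12 held 8 each, and chromosome X held 0 among 186 distal peaks. The share of distal peaks that lay in clusters ran from 0% on X and 1.01% on chromosome 14 to 9.28% on chromosome 12.

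In relation to genes, 50 clusters lay within 1 protein-coding gene, 22 reached across a gene end and 33 lay between genes. Those between genes were a median of 12.7 kb from the nearest one (range 1.12 to 188 kb), and 14 of the 33 overlapped a long non-coding RNA gene. Of the cluster peaks, 63.9% (interval 59.4 to 68.3) were inside a protein-coding gene, against 58.7% (57.7 to 59.7) of other distal peaks. Clusters overlapped 82 protein-coding genes, 0.379% of the 21631 in the table, and 96 genes (0.444%) were the nearest gene of a cluster, with 1 taken per cluster. The 82 overlapped genes were long, with a median length of 74.0 kb against 17.3 kb for all genes. Of the 82, 41 (50.0%, interval 38.7 to 61.3) had a wild-type peak within 1 kb of an end, against 32.6% of all genes, and 43 (52.4%, 41.1 to 63.6) had a knockout peak there, against 34.9%.

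Listed mast cell regulators were among these genes in small numbers. Of 22 transcription factor genes, clusters overlapped 2, Mitf and Runx1. Counting genes within 100 kb of a cluster, Gata2, Lyl1 and Cbfa2t3 joined them, making 5 of 22, where 1.95% of all genes lay that near. Of 46 IgE receptor and Kit signalling genes, clusters overlapped Inpp5d, Inpp5b and Prkca, and Fes lay 29.1 kb from one. Of 26 effector and receptor genes the only one was Il1rl1, and Kit, Fcer1a, Ms4a2, Cpa3, Tpsb2 and Hdc had no cluster within 100 kb. Tgfb1 and Spred2 were overlapped among 28 cytokine and 22 feedback regulator genes. Within 100 kb of a cluster lay 4 of the 28 cytokine genes, Tgfb1, Ccl9, Ccl3 and Ccl4. Ccl9, Ccl3 and Ccl4 lay near the same cluster. Listed genes differ in length from the rest: the median was 56.7 kb for the transcription factors and 64.5 kb for the signalling genes.

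No listed marker of another cell type was overlapped. The counts were 0 of 5 basophil, 0 of 16 neutrophil, 0 of 16 macrophage, 0 of 12 B cell, 0 of 16 T and NK cell, 0 of 15 erythroid and megakaryocyte, 0 of 14 neuron and 0 of 14 liver genes, as well as 0 of 18 housekeeping genes and 0 of 34 inflammatory transcription factor genes. Within 100 kb of a cluster were Klf1, an erythroid factor gene 74.7 kb from the Hook2 cluster, Gadd45g of the DNA methylation list, 70.06 kb from the Sema4d cluster, Mki67 of the cell cycle list, at 95.5 kb, the AP-1 genes Junb and Jund, at 1.19 and 90.97 kb, and the housekeeping gene Ywhaz, 36.4 kb away. None of the 21 stem and progenitor genes lay that near. That list did not include Gata2, Runx1, Lyl1 and Cbfa2t3, which were counted above as mast cell transcription factors. Gadd45g was the only one of 14 DNA methylation genes, Dnmt3a among them, that lay within 100 kb. In lists this short a single gene already exceeds the share of 0.379% found over all genes, and a count of 0 is near that share. The same holds within 100 kb, where the share over all genes was 1.95%. The counts of 0 are therefore not read as a result about these lists. Median gene length in the lists of other cell types ran from 3.15 kb for neutrophil to 60.5 kb for neuron genes.

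Gata2 encodes the zinc finger factor that mast cells need to form and to keep their identity. A cluster lay on each side of it, though another gene was nearer to both. The upstream one, chr6:88106802-88124228, lay 69.7 kb before the gene and 1.498 kb from Rpn1, in the interval known to hold a distant Gata2 enhancer. Its 4 peaks had −log10 q values of 10.3, 6.72, 16.0 and 7.34 in the wild-type list and 9.96, 4.96, 22.8 and 7.06 in the knockout list. The downstream one, chr6:88242698-88254250, lay 35.7 kb beyond the gene and 3.08 kb from Eefsec. Its peaks had wild-type values of 5.02, 27.5, 6.46 and 6.43. The knockout list had 4 distal peaks there. The peak of 27.5 was overlapped by 2 of them, of which the stronger, with 26.2, also covered the peak of 6.46. The outer wild-type peaks had partners of 7.14 and 8.45. Every wild-type peak of both clusters thus had a knockout partner, and neither cluster held a knockout-only peak.

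Mitf encodes the basic helix-loop-helix factor that drives many granule genes. Its cluster of 5 peaks (chr6:97866600-97898383) lay inside the gene, 59.5 kb from its first annotated start and 31.4 kb from the next. The wild-type −log10 q values were 21.5, 6.74, 5.24, 30.7 and 6.35 in order along the chromosome. The peaks of 21.5, 6.74 and 30.7 had knockout partners of 24.8, 12.1 and 30.5, and those of 5.24 and 6.35 had none. A knockout-only peak (97897362 to 97897558, −log10 q 6.35) had its summit 884 bp from that of the last. The 2 strong sites were thus present in both libraries, and the 2 unshared peaks had wild-type pileups of 8 and 9 fragments.

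Runx1 encodes the DNA-binding subunit of core binding factor. Its 4 peaks (chr16:92786898-92801877) lay inside the gene, 24.2 kb from the nearest annotated start. Wild-type values were 13.8, 19.1, 13.2 and 11.9 and knockout values 29.3, 16.6, 9.19 and 15.5, so that each peak had a partner. At the first peak the summit pileup was 18 wild-type and 30 knockout fragments, and at the third 17 and 12.

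Cbfa2t3 encodes a corepressor that joins GATA and helix-loop-helix factors in blood cells. The cluster before it (chr8:122711994-122737265) lay 12.7 kb from the gene and had wild-type values of 19.1, 22.9, 5.02, 13.1 and 6.90. The first pair had knockout partners of 13.6 and 24.4, and the other 3 peaks had none. The peak of 13.1 (122736204 to 122736398, pileup 15) was 16.4 kb from the nearest knockout summit. Lyl1, which encodes a helix-loop-helix factor, lay 18.2 kb from a cluster of 4 inside Nfix, of which 3 peaks were shared.

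**Figure D2:**
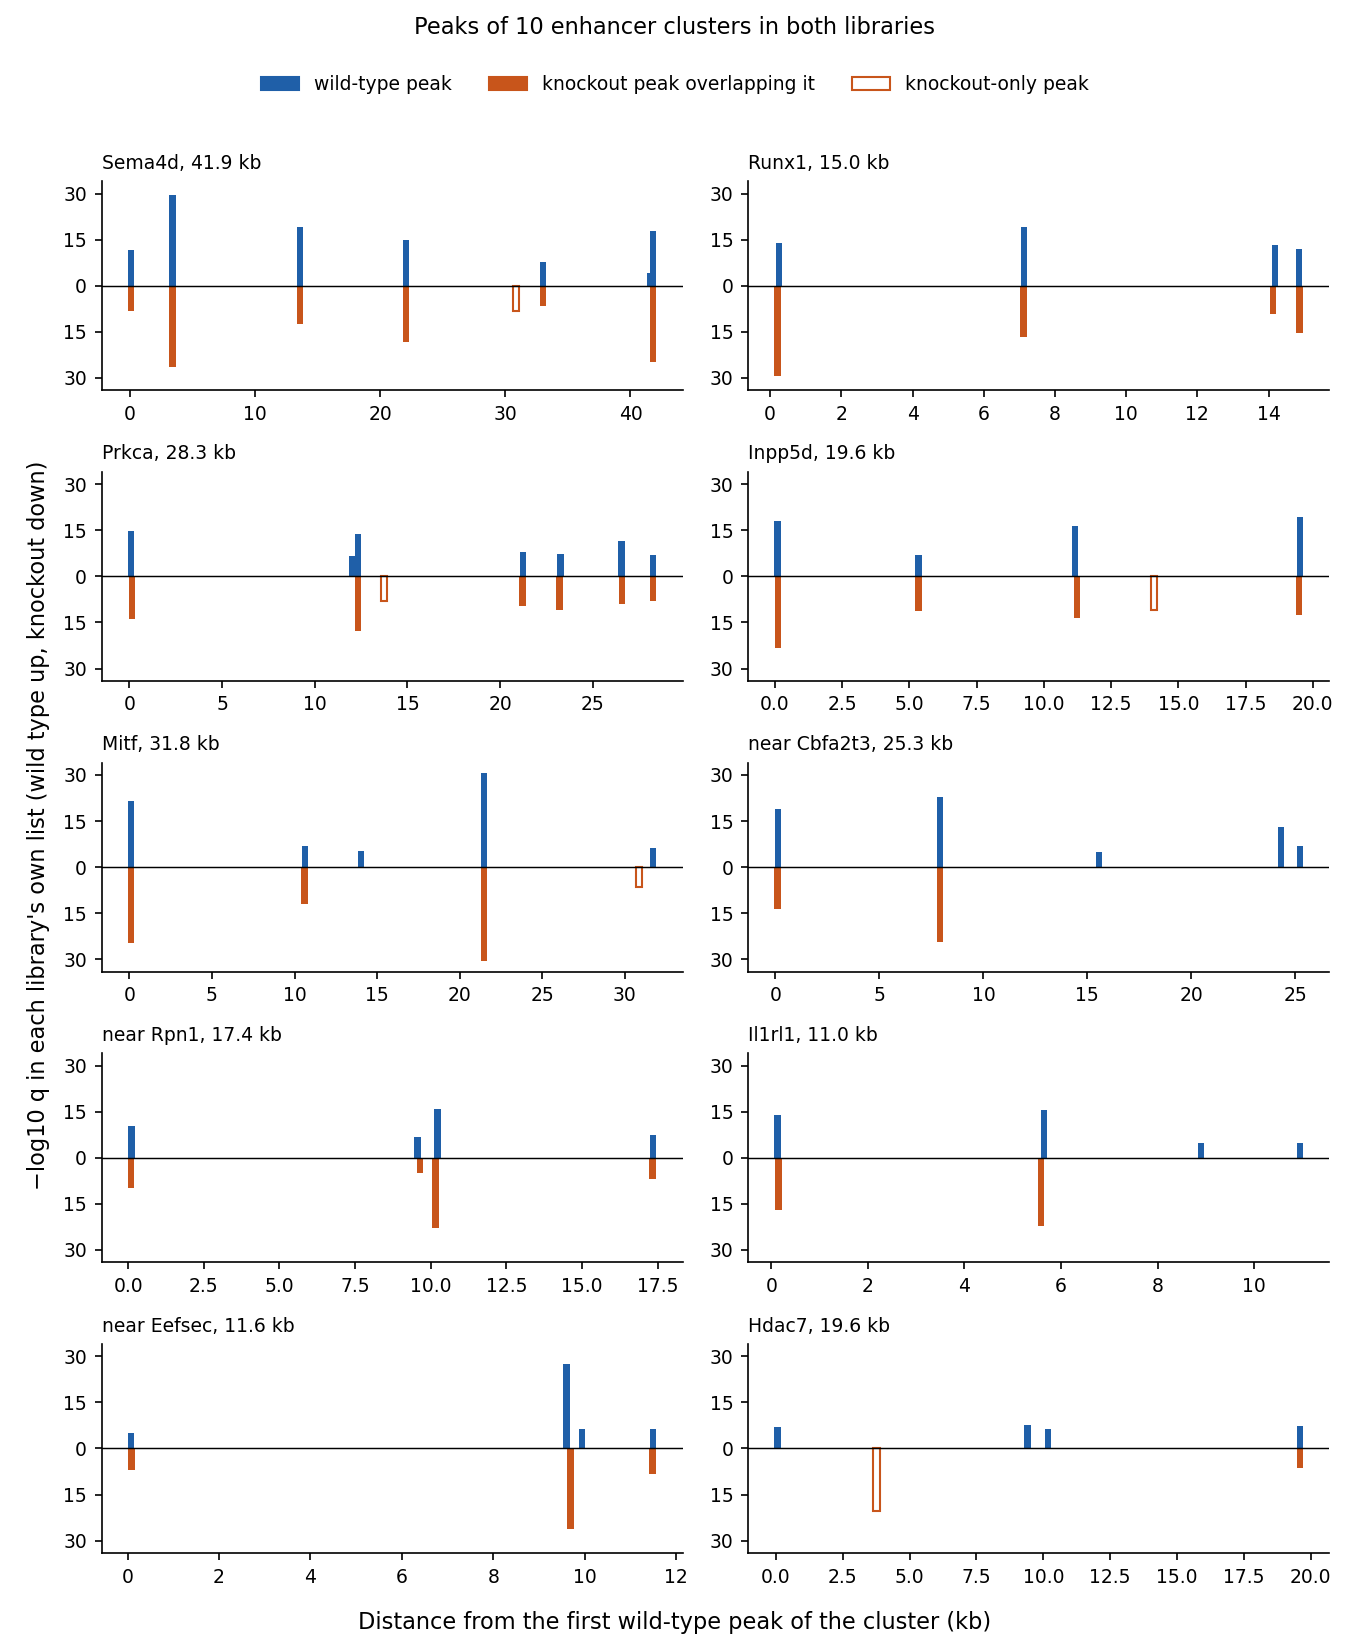
Each panel shows 1 cluster, with the distance in kb from its first wild-type peak on the x axis and the −log10 q on the y axis, wild-type peaks upward and knockout peaks downward; a filled bar is the strongest knockout peak over a wild-type peak, and open bars overlap none. The tallest bars of Mitf, Sema4d and the cluster near Eefsec appear in both lists, while the last 3 bars near Cbfa2t3 and the last 2 of Il1rl1 have no knockout bar.

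Il1rl1 encodes the interleukin 33 receptor chain ST2, and mast cells are known to transcribe it from its distal start. The cluster (chr1:40418562-40429557) ran up to that start, its last peak ending 13 bases before it. Wild-type values were 13.8, 15.6, 4.88 and 4.80. The 2 upstream peaks had knockout partners of 17.1 and 22.4. The 2 weaker peaks, including the one at the start whose sequence is shown above, had none, with the nearest knockout summits 3026 and 5040 bp away. Their wild-type pileups were 12 and 11 fragments.

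Among signalling genes, Inpp5d encodes the phosphatase SHIP1, which restrains IgE receptor signalling. The cluster in it (chr1:87626461-87646083) had wild-type values of 17.96, 7.002, 16.4 and 19.3 and knockout values of 23.3, 11.3, 13.4 and 12.52. A knockout-only peak (87640425 to 87640696) with a −log10 q of 10.96 lay between the last 2. Prkca encodes protein kinase C alpha. Its cluster of 7 (chr11:108223202-108251515) lay inside the gene, 92.4 kb from the start. Wild-type values ran from 6.74 to 14.8. Of the 7 peaks 6 were shared, and the unshared one was 245 bp from a knockout summit. The span also held a knockout-only peak of 8.003. Inpp5b, a related phosphatase gene, had 4 shared peaks of 4, with wild-type values from 4.22 to 15.1. Spred2, an inhibitor of Ras signalling, had 4 of 4 shared, and the cluster at Tgfb1 and B9d2 had 4 of 4 shared.

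The 12 largest clusters held 6 or 7 peaks. Sema4d, a semaphorin gene of immune cells, held 7 peaks over 41.9 kb (chr13:51734689-51776620), with wild-type values from 4.27 to 29.4, and 3 annotated starts lay inside it. Of these peaks 6 were shared, and the unshared one was 226 bp from a knockout summit. A knockout-only peak of 8.36 lay in the same span. Another 7 peaks lay over Nat9 and Tmem104, of which 5 were shared. The 9 clusters of 6 lay at Auh, near Trio, at Tnfaip8, at Hk1, which encodes hexokinase 1, across Atp5d, Midn and Cirbp, and at Wipf1, Csk, Asb2 and Dapp1. Wipf1 encodes a partner of the WASP actin regulator, Csk the kinase that switches off Src family kinases, and Dapp1 an adaptor for phosphoinositide 3-kinase signals. All 6 peaks were shared at Wipf1 and across Atp5d, Midn and Cirbp, where 5 of the 6 had wild-type −log10 q values under 10. Across Atp5d, Midn and Cirbp, the peaks of 14.1, 8.98 and 6.90 overlapped the 250 bases upstream of annotated starts of these genes. At Hk1, the peaks of 16.2 and 8.56 overlapped those upstream of the non-coding gene Hk1os and of Hk1. Whether such peaks act as promoters or as enhancers was not tested. At Auh and near Trio 3 of 6 were shared, at Hk1, Csk and Dapp1 4 of 6, and at Asb2 and Tnfaip8 5 of 6. Auh held the strongest peak of any cluster, with a wild-type −log10 q of 32.4 and a knockout partner of 37.1.

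Cluster peaks were found in the knockout list slightly more often than other distal peaks. A knockout peak overlapped 364 of 466 cluster peaks (78.1%, interval 74.1 to 81.8), 71.8% (70.9 to 72.7) of the 9816 other distal peaks and 72.1% of all distal peaks. The share was 70.8% (69.7 to 71.9) for single peaks, 73.6% (71.7 to 75.3) in pairs, 75.3% (72.0 to 78.4) in stretches of 3, 79.4% (74.3 to 83.9) in clusters of 4 and 75.9% (68.7 to 82.1) in larger ones. Neighbouring steps of this series overlap in their intervals. The mirror image was similar: of 587 peaks in the 131 clusters that the same rule gave in the knockout list, 69.0% (65.1 to 72.7) had a wild-type partner, against 59.5% (58.6 to 60.4) of other distal and 60.0% of all distal knockout peaks. Of the 364 shared cluster peaks, 54 lay under a knockout peak that also covered another peak of the cluster. With a reciprocal overlap of 50% the 2 wild-type shares drew together, at 64.2% and 62.1%, and with a joining gap of 5 kb at 71.9% and 72.1%.

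The difference between cluster peaks and other distal peaks was wider among weak peaks than among strong ones. At a −log10 q of up to 5, 56.2% of cluster peaks (27 of 48, interval 41.2 to 70.5) and 46.5% (43.6 to 49.4) of the others were overlapped. From 5 to 7.5 the shares were 63.6% (55.7 to 71.0) and 55.5% (53.8 to 57.1), and from 7.5 to 10 they were 78.8% (68.2 to 87.1) and 78.2% (76.3 to 80.0). From 10 to 15 they were 94.9% (88.6 to 98.3) and 91.9% (90.6 to 93.1). Above 15, all 77 cluster peaks and 99.5% of the others had a partner. In every class the 2 intervals overlapped. Peaks of 1 library are not replicates, so no test was made.

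Shared and unshared cluster peaks differed in strength. The strongest peak of a cluster had a knockout partner in 100 of 105 clusters (95.2%, interval 89.2 to 98.4) and the weakest in 64 (61.0%, 50.9 to 70.3). Outermost peaks were shared in 79.5% (73.4 to 84.8) and inner ones in 77.0% (71.3 to 82.0). The share was 77.9% (71.9 to 83.1) within 1 gene, 79.4% (70.3 to 86.8) across gene ends and 77.5% (69.7 to 84.2) between genes. Shared cluster peaks had a median −log10 q of 9.58 and unshared ones 6.36, with median pileups of 13 and 9 fragments. The strongest unshared cluster peak had 13.3 and lay in Gse1 (chr8:120336144-120336298). Of the 102 unshared cluster peaks, 31 (30.4%, 21.7 to 40.3) had a knockout summit within 1 kb. The rule picks peaks with near neighbours, so this share is not set against that of other peaks.

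Whole clusters were compared by the rule itself. The same rule in the knockout list gave a cluster at 52 of the 105 (49.5%, interval 39.6 to 59.5). Those 52 made up 39.7% (31.3 to 48.6) of the 131 knockout clusters. Of the 53 without one, 31 still had 3 distal knockout peaks in their span, 1 short of the limit, 20 had 1 or 2, and 2 had 4 or more. In 40 clusters every wild-type peak was shared, 35 had 1 unshared, 23 had 2 and 7 had 3, and 35 clusters had no unshared peak of either list. Of those 35, 22 had as many distal knockout as wild-type peaks, 4 had more and 9 fewer, and 28 overlapped a knockout cluster.

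**Figure D3:**
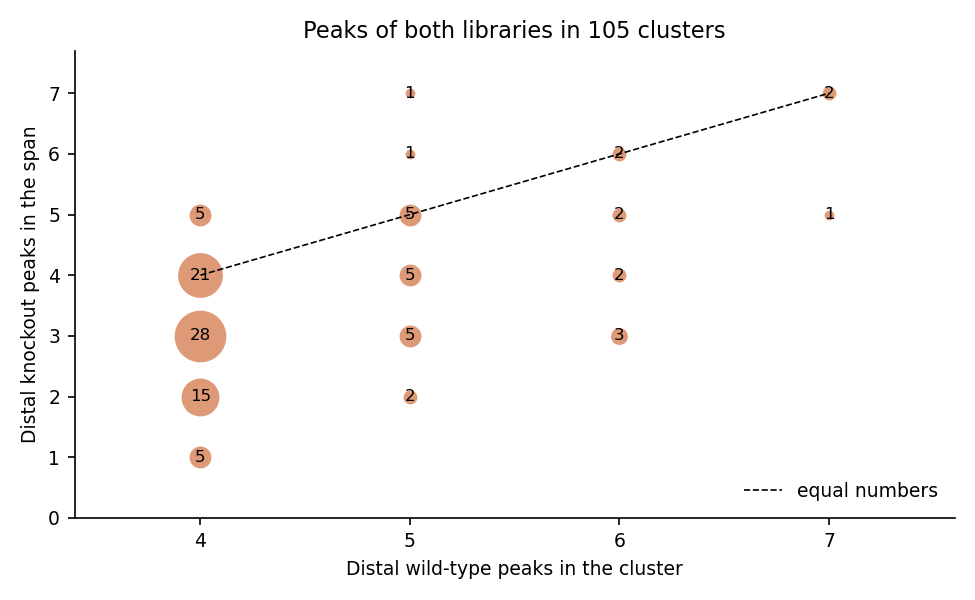
Each circle shows how many of the 105 clusters (number inside, area in proportion) had a given number of distal wild-type peaks (x axis) and distal knockout peaks in the same span (y axis). On the dashed line the numbers are equal, which held for 30 clusters, with 68 below it and 7 above.

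Inside the wild-type spans, 102 peaks were wild-type-only and 16 distal peaks were knockout-only. The rule fixes this balance, since it counted wild-type peaks. Over all distal peaks, 27.9% of the wild-type and 40.0% of the knockout ones had no partner. In knockout clusters the balance was the reverse, with 182 knockout-only and 23 wild-type-only peaks. The 16 knockout-only peaks lay in 15 clusters and had a median −log10 q of 7.67 (range 3.50 to 20.5).

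Plec, a cytoskeletal linker gene, was the only cluster with 2 knockout-only peaks, with values of 8.19 and 5.63, and its 4 wild-type peaks were all shared. The strongest lay in Hdac7, which encodes a class IIa histone deacetylase (chr15:97825080-97825246, −log10 q 20.5, pileup 18). Of the wild-type peaks of that cluster (chr15:97821402-97841037), with values of 7.09, 7.79, 6.36 and 7.32, only the last had a knockout partner, of 6.24. The next strongest knockout-only peak, of 17.6, lay in the cluster across Nbeal2 and Ccdc12. Single knockout-only peaks of 3.50, 5.47 and 6.65 lay in the clusters near Olfml2b, at Rbm20 and near the chemokine gene Ccl9. Further knockout-only peaks included 1 each at Wipf1, Abr, Nat9 and Tmem104, and Tnfaip8, besides those at Inpp5d, Mitf, Prkca and Sema4d given above.

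Clusters with 3 wild-type peaks missing from the knockout list were those at Hdac7, Fbxo34, Gse1 and Auh, near Atp5mpl, near Cbfa2t3 and near Trio. At Fbxo34 the unshared values were 3.62, 6.56 and 5.57 and at Auh 7.92, 6.82 and 7.22. At Gse1 they were 6.63, 6.68 and 13.3, the first 2 lying 36 bases apart. Near Trio they were 6.63, 10.2 and 11.98, so that 2 of 3 passed 10. Near Ccl9, 12.2 kb from the gene, the 2 strong peaks of 17.3 and 18.3 were shared (9.53 and 12.3 in the knockout list), and the 2 weak ones of 5.20 and 5.02 were not. No wild-type peak above 15 was missing from the knockout list in any of the 105 clusters.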

How the data were processed

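Each library has its own peak list, made by the authors. The submitters' processing notes name Trimmomatic, Bowtie2, MACS2, mm10 and GRCm38, without versions. Settings, and whether reads were moved to the Tn5 cut, are not given in the sources used. Per the labels, single reads of 50 bp were sequenced at a depth stated for all libraries alike. The deposited values per peak are a score (10 times the −log10 q-value), the peak's fold over background, a −log10 p-value and a −log10 q-value. They describe peaks within their own list. The authors' fold and −log10 p were solved for the fragments at the summit and the background around it, and 100% of peaks gave a whole number (Poisson p, pseudocount 1, tolerance 0.001).

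Genes and start windows came from RefSeq tables of GRCm38.p6 (21631 protein-coding genes). All listed genes matched by symbol. Of 1841 start windows overlapping one on the other strand, 0 differed in sequence. Tools were SciPy 1.17.1, pandas 2.3.3, NumPy 2.4.6 and Python 3.11.15. Steps were tested on simulated intervals. The clusters and gene lists were chosen with earlier results of these data known. Clusters named are the 12 with most peaks, 6 each with most knockout-only and wild-type-only peaks, and up to 3 per mast cell list; others were chosen after their values were seen. Alternatives changed the gap, the number of peaks, the −log10 q limit, gene ends, close intervals, chromosome X, list length and the definition of overlap.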

Additional observations from a re-analysis of the deposited data

How the results depend on the processing

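No paired analysis was possible because there was a single library per genotype. The cause of shifts was not tested, except where the setting itself changes the clusters. The number of clusters was 14 with a gap of 5 kb, 278 with 25 kb, 349 with at least 3 peaks, 31 with at least 5 and 65 with intervals within 200 bp counted as 1. Cluster peaks with a knockout partner were 71.9% with a gap of 5 kb, 72.3% with equal numbers of peaks and 64.2% with a reciprocal overlap of 50%. For other distal peaks the share was 67.1% with equal numbers, 62.1% with the reciprocal overlap and 72.8% by summits within 200 bp. Wild-type clusters that overlapped a knockout cluster were 35.7% with a gap of 5 kb and 61.9% with 25 kb. Knockout-only peaks inside clusters numbered 0 with a gap of 5 kb, 96 with 25 kb, 40 with at least 3 peaks, 9 with at least 5 and 66 with the reciprocal overlap. The cluster share was at or above the other distal share in each setting that gave both, but for the gap of 5 kb. A −log10 q of at least 5, a distance of 2.5 kb to gene ends, and ends of non-coding genes too moved none of these values past its interval or by over 1.5 times. Chromosome X held 0 clusters, so leaving it out could change only the share of other distal peaks, which was then 71.9%. Peak calls rest on few fragments, with a median of 9 at the summit in each list.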
